A study of Mus musculus with 23 samples.

Results

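The hippocampus of untreated 8-month-old female 3xTg mice was compared with that of WT mice of the same age by bulk RNA sequencing, to ask which pathways and cell types differ between the strains before any treatment. The comparison takes the 4 libraries of 3xTg-8M and the 4 libraries of WT-8M, which are 8 of the 23 libraries of the series and were chosen by their labels alone, each library being the hippocampus of a separate unoperated animal. The 3xTg line carries the transgenes labelled APPSwe and tauP301L, human APP with the Swedish mutation and human tau with a frontotemporal dementia mutation, both driven by the neuron-specific Thy1.2 element, beside a knocked-in mutant allele. The WT controls, labelled C57BL/6J x 129S1, are the mixed stock B6129SF2/J, whose animals each hold their own assortment of alleles of both parents. The 3xTg mice are bred as a separate line, so that transgenes and background alleles cannot be told apart in this comparison. The other libraries come from 10-month-old mice infused for a month into the ventricle, and their vehicle groups, 3xTg-D (n = 4) and WT-D (n = 4), serve here only as a second cohort of other animals.

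Of 55335 genes in the table, 15483 passed the filter on low counts and were tested. Genes with an adjusted p (Benjamini-Hochberg) under 0.05 in edgeR's quasi-likelihood test are the called genes, with CPM, a gene's counts relative to the library total after scaling for composition, as the unit of level. Differences on the log2 scale are log2 fold changes of 3xTg-8M over WT-8M. The strains differed in 399 genes (2.58% of those tested), of which 162 were higher (1.05%) and 237 lower (1.53%) in 3xTg-8M. Because neighbouring genes of a strain-specific segment can differ together, called genes standing close on a chromosome (3 or more, with at most 5 uncalled tested genes and 2 Mb between neighbours) were set apart as runs. There were 17 runs, which held 86 called genes, and 313 called genes (2.02%) lay outside them, 129 higher (0.833%) and 184 lower (1.19%). An unadjusted p under 0.05 was reached by 2690 genes (17.4%), 1324 higher (8.55%) and 1366 lower (8.82%), and one under 0.01, the study's own threshold, by 1066 (6.88%). Depth ran from 12802267 to 36686413 gene counts per library, and the correlation of log2 levels between libraries of a group from 0.9895 to 0.9961. The first principal component, with 38.8% of the variance, held every WT-8M library on one side of 0 and every 3xTg-8M library on the other. The loci behind the transgenes were checked first: Thy1, whose regulatory element drives both, was at 523, 595, 624 and 619 CPM in WT-8M and 2219.5, 1802, 2137 and 2321 CPM in 3xTg-8M. App, whose counts can include reads of human APP, was at 1633, 1696, 1632 and 1748 CPM in WT-8M and 2314, 2147, 2372 and 2157 CPM in 3xTg-8M, each with no overlap.

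Proteins bound for the membrane or for secretion are folded in the endoplasmic reticulum, and unfolded protein there sets off the unfolded protein response. Its sensors are IRE1, which splices the mRNA of the transcription factor Xbp1, ATF6, which is itself cut to a transcription factor, and PERK, which slows translation and raises Atf4. XBP1 and ATF6 switch on chaperones and degradation factors of the reticulum, in part through the ER stress response element, whereas Atf4 drives amino acid and death-related genes such as Asns, Chac1 and Ddit3. Neurons, which make large amounts of membrane and secreted protein, rely on this response, and it has been studied in Alzheimer's disease because APP passes through the same compartment.

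The unfolded protein response held more called genes than any of the other 61 lists with tested members. Some of its promoters are printed to show the elements through which members of this response are known to be induced, 3 of genes that were called and 1 of a gene that was not. The windows run from 250 bases before to 50 after the start given by RefSeq on GRCm38.p6, read 5′ to 3′ on the strand of the gene. Capitals mark the ER stress response element (ERSE, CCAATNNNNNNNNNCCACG, on either strand), or its second form (ERSE-II, ATTGGNCCACG, on either strand), which has another spacing and was searched apart.
Hspa5 (chr2:34771840-34772139, plus strand, ERSE): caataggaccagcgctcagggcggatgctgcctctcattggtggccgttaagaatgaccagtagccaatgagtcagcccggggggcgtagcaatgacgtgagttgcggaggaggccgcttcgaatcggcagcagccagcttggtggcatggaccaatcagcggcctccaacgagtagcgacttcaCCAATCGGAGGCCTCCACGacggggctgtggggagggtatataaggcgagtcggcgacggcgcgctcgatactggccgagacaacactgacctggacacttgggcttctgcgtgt
Creld2 (chr15:88819396-88819695, plus strand, ERSE): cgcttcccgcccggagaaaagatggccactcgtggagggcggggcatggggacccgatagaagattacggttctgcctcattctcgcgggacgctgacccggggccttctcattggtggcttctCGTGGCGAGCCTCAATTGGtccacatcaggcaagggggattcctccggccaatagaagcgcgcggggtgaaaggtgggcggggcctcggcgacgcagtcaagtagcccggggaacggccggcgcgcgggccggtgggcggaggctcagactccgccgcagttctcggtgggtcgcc
Herpud1 (chr8:94386179-94386478, plus strand, ERSE-II): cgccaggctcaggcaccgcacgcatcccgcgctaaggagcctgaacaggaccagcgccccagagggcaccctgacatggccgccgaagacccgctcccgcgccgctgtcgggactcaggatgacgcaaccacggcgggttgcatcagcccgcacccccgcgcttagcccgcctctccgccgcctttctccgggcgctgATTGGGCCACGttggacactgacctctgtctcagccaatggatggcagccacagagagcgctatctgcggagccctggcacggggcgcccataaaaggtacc
Hsp90b1 (chr10:86705395-86705694, minus strand, ERSE in 2 places): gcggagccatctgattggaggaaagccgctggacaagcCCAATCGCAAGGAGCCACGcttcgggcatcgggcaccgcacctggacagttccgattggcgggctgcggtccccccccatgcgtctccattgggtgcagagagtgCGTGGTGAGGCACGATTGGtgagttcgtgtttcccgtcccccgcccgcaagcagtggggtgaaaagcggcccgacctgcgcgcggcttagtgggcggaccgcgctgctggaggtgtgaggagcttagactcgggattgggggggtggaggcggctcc
An ERSE was found in 39 of 32851 promoter windows (0.119%), and in 17 of the 11495 tested genes that had a window (0.148%). It was found in 7 of the 20 members of the list that had a window, namely Calr, Canx, Creld2, Dnajc3, Hsp90b1, Hspa5 and Pdia6. An ERSE-II was found in 12 windows (0.0365%) and in 9 of the tested genes that had a window (0.0783%), among them Dnajb11 and Herpud1. Of the 10 members with a window that reached an unadjusted p under 0.05, 4 held an ERSE and 2 an ERSE-II. Of the 9 other tested members 3 held an ERSE and 0 an ERSE-II, so that members with the same element stood on both sides of the threshold.

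In this response 6 chaperones and regulators were higher in 3xTg-8M, with log2 fold changes from 0.30 to 0.92, while 5 of the 22 tested members, none of them called, lay below 0. Of 22 tested members, 6 were called, all higher, against 1.05% of all genes, and 12 were higher at an unadjusted p under 0.05, against 8.55%. The median log2 fold change of the list was 0.2524, and that of all tested genes 0.00596. Xbp1, the transcription factor of the IRE1 branch (chromosome 11, 5520659 to 5525893), was at 66.3, 73.98, 78.2 and 70.1 CPM in WT-8M and 104, 109, 89.4 and 97.8 CPM in 3xTg-8M. Xbp1 stood at 0.47 on the log2 scale (SE 0.08, adjusted p = 0.00615), and its groups did not overlap. Hspa5, the main chaperone of the reticulum, also known as BiP (chromosome 2, 34771970 to 34777547), was at 316, 350.1, 363 and 372 CPM in WT-8M and 601, 604, 423 and 470.5 CPM in 3xTg-8M. Hspa5 stood at 0.58 on the log2 scale (SE 0.11, adjusted p = 0.0164). Replicates 1 and 2 of 3xTg-8M were the highest and replicate 3 the lowest of its group, still above every WT-8M library.

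Sdf2l1, a co-factor of that chaperone (chromosome 16, 17130138 to 17132383), was at 6.07, 5.998, 9.104 and 9.68 CPM in WT-8M and 15.6, 16.7, 13.9 and 11.9 CPM in 3xTg-8M. Sdf2l1 stood at 0.92 on the log2 scale (SE 0.17, adjusted p = 0.0158). Creld2, an oxidoreductase-like protein that is released on calcium loss from the reticulum, was at 9.398, 10.1, 13.7 and 13.5 CPM in WT-8M and 20.7, 21.2, 15.1 and 19.1 CPM in 3xTg-8M. Creld2 stood at 0.72 on the log2 scale (SE 0.15, adjusted p = 0.0246). Manf, a secreted neurotrophic factor retained by Hspa5, was at 38.3, 41.99, 44.6 and 48.9 CPM in WT-8M and 67.6, 61.3, 51.3 and 59.8 CPM in 3xTg-8M. By the rule Manf (chromosome 9, 106838312 to 106891979) is outside runs, but it lies close to a run on that chromosome that ends at 106447678. Manf stood at 0.47 on the log2 scale (SE 0.10, adjusted p = 0.0246). The groups did not overlap for either gene. Herpud1, which takes part in the degradation of misfolded protein, was at 38.3, 39.1, 45.1 and 39.1 CPM in WT-8M and 50.8, 52.9, 46.7 and 48.5 CPM in 3xTg-8M. Herpud1 stood at 0.30 on the log2 scale (SE 0.07, adjusted p = 0.046), and was not called in 10 of 14 alternatives, among them without any library but WT-8M replicate 3 (adjusted p up to 0.151).

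Of the members that missed the threshold, the nearest were the folding enzymes and co-chaperones Pdia4 (log2 fold change 0.51, adjusted p = 0.0571), Dnajc3 (0.27, adjusted p = 0.0792) and Pdia6 (0.32, adjusted p = 0.114). Dnajb11, Ddit3 and Hyou1 had log2 fold changes of 0.25, 0.44 and 0.26, with an unadjusted p under 0.05 and adjusted p of 0.167, 0.193 and 0.209. Abundant chaperones and enzymes of the same compartment had log2 fold changes of 0.12 (Calr), -0.04 (Canx), 0.08 (Pdia3) and 0.05 (Hsp90b1). Genes of the PERK branch had 0.02 (Asns), -0.24 (Chac1), 0.19 (Atf4) and, as given above, 0.44 (Ddit3). The sensor Atf6 was at -0.09, and the lowest adjusted p among these genes other than Ddit3 was 0.367, that of Atf4. In 8 members of the list the strains did not overlap, where this held for 11.2% of all genes.

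**Figure D1:**
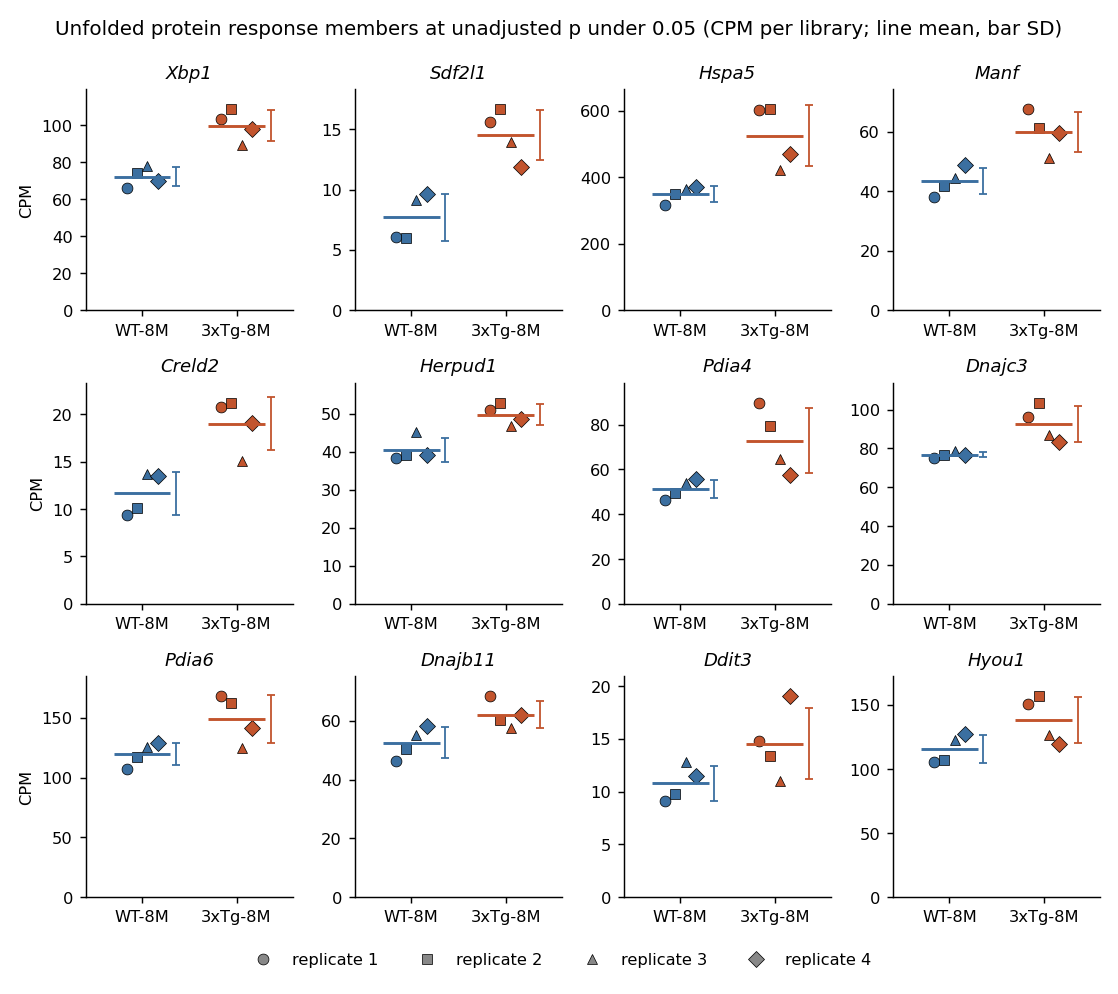
Levels in CPM (vertical axes, from 0) of the 12 members of the unfolded protein response list at an unadjusted p under 0.05, in the 4 WT-8M (blue) and 4 3xTg-8M (orange) libraries, with the replicate number given by the symbol, the mean by a line and the SD by a bar. Xbp1 and Hspa5 do not overlap between the groups, and 3xTg-8M replicate 3 (triangle) is the lowest of its group in Hspa5, Manf and Creld2.

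These calls depended on single libraries. The 6 calls fell to 1 without 3xTg-8M replicate 1, without 3xTg-8M replicate 2 or without WT-8M replicate 2, to 2 without WT-8M replicate 1, and were 5 or 6 without any other library. Xbp1 remained called in all 14 alternatives. Sdf2l1 lost the call in 3 of these, without 3xTg-8M replicates 1 and 2 and WT-8M replicate 2 (adjusted p up to 0.0587). Creld2 and Manf lost it without those 3 libraries, without WT-8M replicate 1, and without 3xTg-8M replicate 4 (Creld2, up to 0.0922) or WT-8M replicate 3 (Manf, up to 0.0871). Hspa5 had adjusted p of 0.055 and 0.0584 without 3xTg-8M replicates 1 and 2, and of 0.051 and 0.0606 without WT-8M replicates 1 and 2, at log2 fold changes from 0.51 to 0.67 over all alternatives. The median of the list stayed between 0.1958 and 0.2886 over the 14 alternatives. In the vehicle cohort at 10 months the median was 0.1128, with 0 members called by edgeR where 1.39% of all genes were. There Hspa5, Creld2 and Xbp1 had log2 fold changes of 0.32 (SE 0.12, adjusted p = 0.267), 0.34 (SE 0.13, adjusted p = 0.276) and 0.21 (SE 0.12, adjusted p = 0.485). The difference of the strain effect between the cohorts was not called for any member.

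Chaperones of the cytosol were measured beside those of the reticulum, since heat shock genes answer to unfolded protein outside it. Of 22 tested heat shock and chaperone genes 2 were called, both higher, against 1.05% of all genes. At an unadjusted p under 0.05, 6 were higher, against 8.55%. Hspa1b, an inducible HSP70, was at 5.66, 6.78, 6.64 and 6.21 CPM in WT-8M and 11.4, 13.4, 10.2 and 8.75 CPM in 3xTg-8M. Hspa1b stood at 0.80 on the log2 scale (SE 0.14, adjusted p = 0.00855). Its neighbour Hspa1a, nearly identical in sequence, was at 3.196, 5.28, 5.07 and 4.96 CPM in WT-8M and 6.53, 8.25, 4.67 and 6.82 CPM in 3xTg-8M (0.53, adjusted p = 0.208), so that reads may have been split between the copies. Dnajb1, an HSP40 co-chaperone, was at 37.9, 44.1, 47.8 and 42.1 CPM in WT-8M and 60.4, 59.4, 54.3 and 53.5 CPM in 3xTg-8M. Dnajb1 stood at 0.41 on the log2 scale (SE 0.08, adjusted p = 0.0168). Its adjusted p was 0.072 and 0.0682 without 3xTg-8M replicates 1 and 2 and 0.0518 and 0.0604 without WT-8M replicates 2 and 4. Hsf1, the factor that switches these genes on, was at a log2 fold change of 0.24, adjusted p = 0.0794. The abundant HSP90 members, Hsp90ab1 (0.04) and Hsp90aa1 (-0.02), lay near 0, and the median of the list was 0.048.

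The plot of list medians sets these lists beside all others. Over 63 lists of markers and pathways, 62 had tested members, 33 of them with 0 called members, 20 with 1 and 9 with 2 or more. Of the 271 tested cell type markers 7 were called (2.58%), 2 higher and 5 lower, the share found among all genes. Of the 986 tested pathway genes 37 were called (3.75%), 20 higher and 17 lower. The shares to set beside the counts of each list are those of all genes. These were 2.58% called, and 8.55% higher and 8.82% lower at an unadjusted p under 0.05. The tissue held the markers of the hippocampal subfields at readable levels, with a summed level of 872.2 to 1002 CPM for the CA1 pyramidal list and 999.6 to 1284 CPM for the dentate granule list over the 8 libraries. Of the T and B lymphocyte markers 0 of 11 passed the filter.

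**Figure D2:**
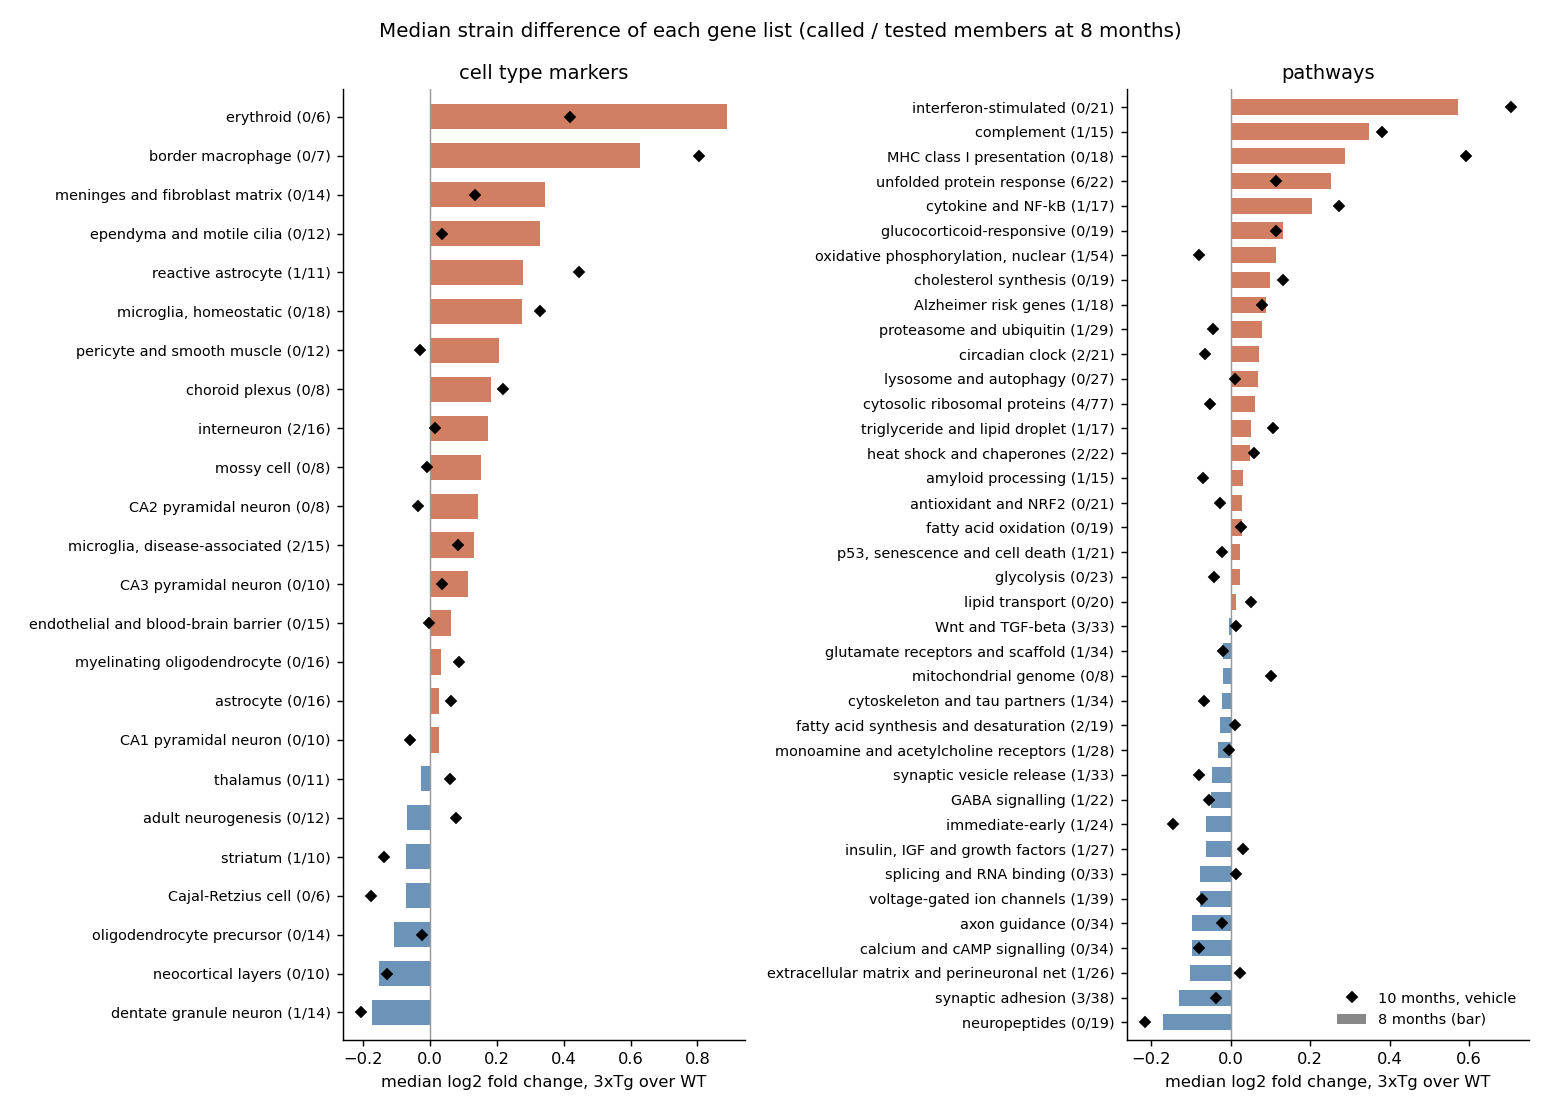
Median log2 fold change of 3xTg over WT (horizontal axes) in each cell type marker list (left) and pathway list (right), with bars for the 8-month libraries, diamonds for the 10-month vehicle libraries, and called over tested members at 8 months in parentheses. The unfolded protein response (6 of 22 called) lies at 0.2524, and the interferon-stimulated list (0 of 21 called) has the highest pathway median, 0.5718.

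Microglia, the resident macrophages of the brain, were read by 2 marker lists. The homeostatic list, genes that mark microglia at rest such as the receptors of purines and of CSF1, had 0 of 18 members called by edgeR. Its 8 members with an unadjusted p under 0.05 were all higher, where 8.55% of all genes were. The list had a median log2 fold change of 0.2743. In the vehicle cohort at 10 months the median was 0.3286, with 11 members higher at an unadjusted p under 0.05 and 2 called. Tmem119, a microglial surface protein, was at 11.1, 12.6, 16.6 and 14.7 CPM in WT-8M and 24.6, 19.4, 18.5 and 17.6 CPM in 3xTg-8M. Tmem119 stood at 0.56 on the log2 scale (SE 0.14, adjusted p = 0.0593), with no overlap between the groups. C1qc, a chain of complement C1q, was at 19.8, 25.3, 25.7 and 25.6 CPM in WT-8M and 35.9, 29.1, 26.6 and 34.2 CPM in 3xTg-8M (0.40, adjusted p = 0.0994). The purine receptor P2ry13 was at 0.30 (adjusted p = 0.108), while its relative P2ry12 was at -0.01 and the fractalkine receptor Cx3cr1 at 0.14 (adjusted p = 0.356). The summed level of the list was 530.8 to 625 CPM in WT-8M and 635.3 to 799.6 CPM in 3xTg-8M. In bulk tissue, more cells of a type and more RNA per cell cannot be told apart, here and below.

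The disease-associated list holds genes that microglia raise around plaques, and 2 of its 15 tested members were called, in opposite directions. Tyrobp, the adaptor through which TREM2 signals, was higher, at 7.13, 7.498, 6.64 and 8.57 CPM in WT-8M and 12.9, 11, 9.26 and 10.9 CPM in 3xTg-8M. Tyrobp stood at 0.57 on the log2 scale (SE 0.13, adjusted p = 0.0383). Gpnmb, a lysosomal glycoprotein of activated microglia, was lower, at 6.07, 8.28, 7.69 and 8.22 CPM in WT-8M and 5.399, 5.27, 4.59 and 3.94 CPM in 3xTg-8M. Gpnmb stood at -0.64 on the log2 scale (SE 0.15, adjusted p = 0.0467). Tyrobp was not called in 8 of 14 alternatives, among them without any library but 3xTg-8M replicate 3 and WT-8M replicate 4 (adjusted p up to 0.148). Gpnmb was not called in 9 of 14, among them without any library but WT-8M replicate 1 (up to 0.124). Over the list 3 members were higher and 2 lower at an unadjusted p under 0.05, with a median of 0.1309. Trem2 was at 0.42 (adjusted p = 0.0958), Apoe at 0.24 (0.161) and the chemokine Ccl6 at -0.67 (0.199), and 3 members, Cst7, Itgax and Ccl3, did not pass the filter on low counts.

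Interferon-stimulated genes, the antiviral set that type I interferon switches on, had the highest median of the pathway lists, 0.5718, yet 0 of 21 tested members were called by edgeR. At an unadjusted p under 0.05, 10 members were higher, against 8.55% of all genes, and 0 lower. The 3xTg-8M libraries differed among themselves here. Usp18, a brake on the interferon receptor, was at 0.219, 0.571, 0.97 and 0.347 CPM in WT-8M and 5.61, 2.597, 0.376 and 1.203 CPM in 3xTg-8M. Usp18 stood at 2.55 on the log2 scale (SE 0.69, adjusted p = 0.0835). Oasl2, an antiviral protein, was at 2.29, 2.86, 3.73 and 2.67 CPM in WT-8M and 21.8, 9.09, 2.56 and 4.08 CPM in 3xTg-8M (1.81, adjusted p = 0.113). In both genes replicate 1 was the highest, replicate 2 next, and replicate 3 lay within the range of WT-8M. Stat2, a transcription factor of the pathway, was at 25.8, 21.6, 27.4 and 25.5 CPM in WT-8M and 36.7, 32.5, 34.3 and 27.3 CPM in 3xTg-8M (0.39, adjusted p = 0.07), with replicate 4 as the lowest of 3xTg-8M and within the WT-8M range. The mean of log2(CPM + 1) over the list, set against the WT-8M mean, was 0.9979, 0.5739, -0.1487 and 0.2088 in the 4 libraries of 3xTg-8M and ran from -0.1016 to 0.1114 in WT-8M. In the vehicle cohort the list had a median of 0.7047 and Stat2 was called there, at 0.50 (SE 0.10, adjusted p = 0.0287).

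Class I antigen presentation had a median above 0 as well, with 0 of 18 members called by edgeR and 5 higher at an unadjusted p under 0.05 (median 0.2867). Its smallest p was that of Tapbp, which loads peptide onto class I molecules (log2 fold change 0.29, SE 0.08, adjusted p = 0.0802). B2m, the light chain, was at 68.2, 83.8, 76.9 and 60.2 CPM in WT-8M and 113, 99.5, 63.3 and 97.8 CPM in 3xTg-8M (0.38, adjusted p = 0.244). Replicate 3 of 3xTg-8M was again the lowest library of its group in B2m, below 3 of the 4 WT-8M libraries. In the vehicle cohort the class I list had a median of 0.5922, with 12 members higher at an unadjusted p under 0.05 and 0 called. In the complement list 1 of 15 tested members was called. It was Cd59a, an inhibitor of the membrane attack complex, at 5.76, 5.28, 4.85 and 4.34 CPM in WT-8M and 8.97, 8.71, 8.13 and 11.4 CPM in 3xTg-8M. Cd59a stood at 0.87 on the log2 scale (SE 0.14, adjusted p = 0.00596), and at 10 months at 1.98 (SE 0.25, adjusted p = 0.00137). Of the complement list 4 members were called at 10 months. C4b, a component of the classical pathway, was at 31.2, 30.8, 31.8 and 28.4 CPM in WT-8M and 71.2, 58.7, 33.2 and 40.8 CPM in 3xTg-8M (0.75, adjusted p = 0.0633), and its near-identical neighbour C4a was at 0.16. In the cytokine and NF-kB list, 1 of 17 tested members was called. The alarmin Il33 was lower, at 68.3, 77.7, 71.04 and 69.1 CPM in WT-8M and 58.04, 52.8, 51.5 and 56.5 CPM in 3xTg-8M. Il33 stood at -0.38 on the log2 scale (SE 0.07, adjusted p = 0.00972). In the same list 5 others were higher at an unadjusted p under 0.05.

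**Figure D3:**
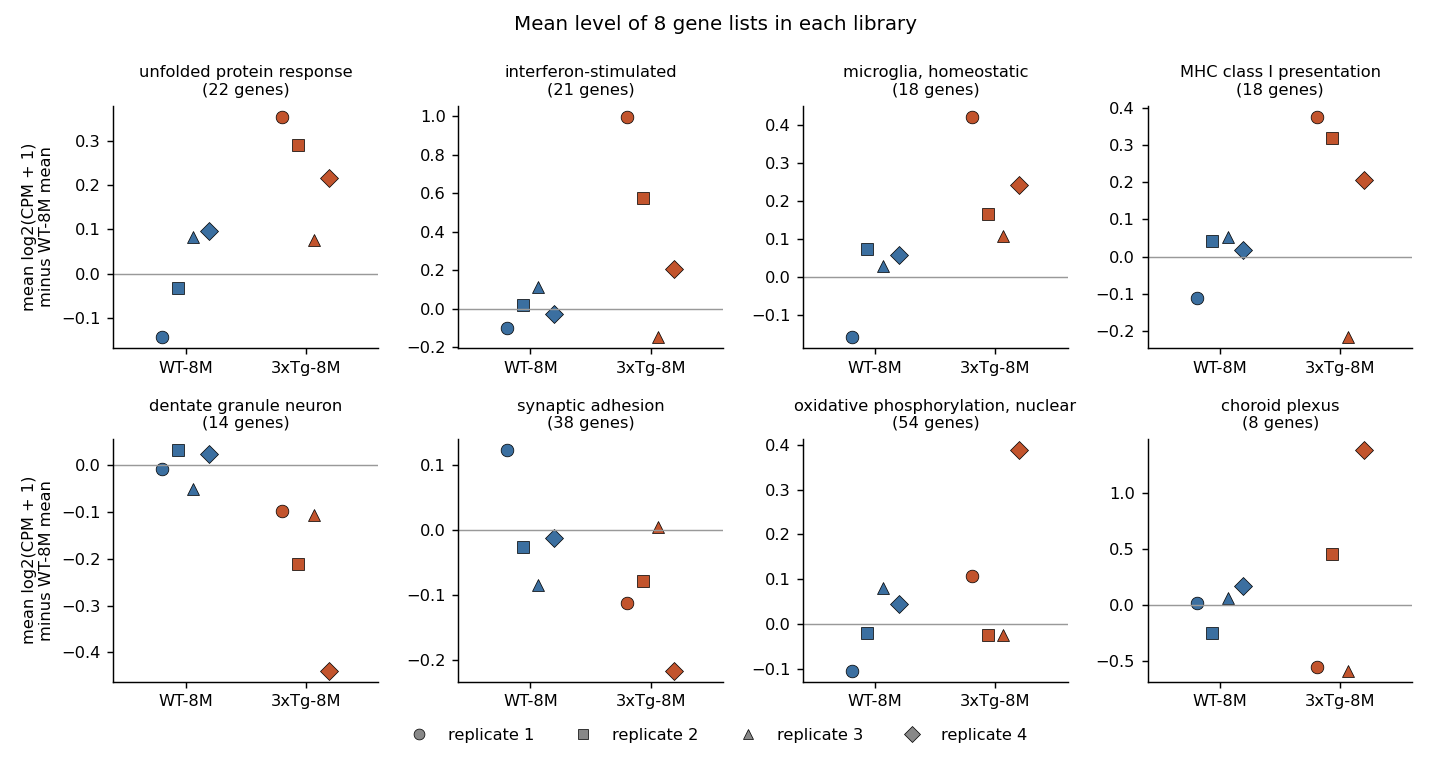
Mean of log2(CPM + 1) over the members of 8 lists, minus the WT-8M mean (vertical axes), in each library, with the replicate number given by the symbol. In the interferon-stimulated list 3xTg-8M replicate 1 reaches 0.9979 and replicate 3 lies at -0.1487, and in the nuclear oxidative phosphorylation and choroid plexus lists 3xTg-8M replicate 4 is the highest library.

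Astrocytes, the glia that feed neurons and clear transmitter, were read by 16 identity markers, of which 0 were called by edgeR and 3 reached an unadjusted p under 0.05, with a median of 0.028. Among reactive astrocyte genes, 1 of 11 tested members was called, in the direction opposite to the median of the list. Serpina3n, a secreted protease inhibitor and a common marker of reactive astrocytes (chromosome 12, 104406729 to 104414329), was lower, at 204, 239, 159 and 264 CPM in WT-8M and 58.7, 41.8, 39.7 and 50.7 CPM in 3xTg-8M. Serpina3n stood at -2.17 on the log2 scale (SE 0.16, adjusted p = 1.34e-05), and at 10 months at -1.36 (SE 0.49, adjusted p = 0.248). Its cluster neighbour Serpina3m, a close paralog, was at 4.43, 5.43, 2.61 and 6.001 CPM in WT-8M and at or next to 0 in 3xTg-8M (0, 0, 0 and 0.134 CPM), and reads of such copies can be split. The other members included Vim at 0.41 (adjusted p = 0.271) and Osmr at 0.34 (0.273), and the median of the list was 0.279. At an unadjusted p under 0.05, 3 members were higher, with log2 fold changes up to 1.071, against 8.55% of all genes. Serpina3n was the 1 lower at that p. In the vehicle cohort the median of this list was 0.4453, with 5 members higher and 1 lower at that p. Chil1, a chitinase-like glycoprotein made by astrocytes (chromosome 1, 134182176 to 134190181), was higher, at 8.55, 7.85, 7.09 and 5.62 CPM in WT-8M and 21.3, 17.6, 15.1 and 20.5 CPM in 3xTg-8M. Chil1 stood at 1.36 on the log2 scale (SE 0.15, adjusted p = 0.000293), and at 10 months at 1.15 (SE 0.17, adjusted p = 0.00401). Markers of myelinating oligodendrocytes (0 of 16 called, 1 at an unadjusted p under 0.05) and of their precursors (0 of 14 called, 1 at that p) had medians of 0.031 and -0.109.

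In dentate granule neurons, the cells that receive the main input of the hippocampus, 1 of 14 markers was called and 4 were lower at an unadjusted p under 0.05 (median -0.1735, 12 of 14 below 0). C1ql2, a C1q-like protein secreted at the mossy fibre synapse (chromosome 1, 120340582 to 120343174), was at 53.3, 61.9, 63.9 and 56.9 CPM in WT-8M and 30.01, 27.6, 27.8 and 28.6 CPM in 3xTg-8M. C1ql2 stood at -1.04 on the log2 scale (SE 0.07, adjusted p = 6.48e-06). The highest 3xTg-8M library lay far below the lowest WT-8M library, and the gene was lower at 10 months too, at -1.37 (SE 0.13, adjusted p = 0.000101). Prox1, which defines granule cell identity, was at 120.1, 116, 114 and 119.7 CPM in WT-8M and 111, 102, 118 and 76.3 CPM in 3xTg-8M (-0.20, adjusted p = 0.373), and Calb1 was at -0.09 (adjusted p = 0.631). Replicate 4 of 3xTg-8M was the lowest library for Prox1, and the group overlapped with WT-8M.

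In the interneuron list 2 of 16 markers were called in opposite directions, and the median was 0.1735. Kit, a receptor tyrosine kinase of hippocampal interneurons (chromosome 5, 75574916 to 75656722), was lower, at 153, 127, 129 and 134 CPM in WT-8M and 87.4, 85.2, 97.6 and 89.8 CPM in 3xTg-8M. Kit stood at -0.60 on the log2 scale (SE 0.07, adjusted p = 0.000907), and at 10 months at -0.56 (SE 0.07, adjusted p = 0.00106). Htr3a, the ionotropic serotonin receptor subunit of a class of interneurons, was higher, at 8.47, 8.57, 11.9 and 10.1 CPM in WT-8M and 15.5, 14.1, 12.6 and 13.97 CPM in 3xTg-8M. Htr3a stood at 0.54 on the log2 scale (SE 0.12, adjusted p = 0.0398). It lost the call in 8 of 14 alternatives, among them without any library but replicate 3 of either group (adjusted p up to 0.151). Reln, an extracellular signal of other interneurons, was at -0.40 (0.105) and the vesicular GABA transporter Slc32a1 at 0.24 (0.0995).

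For signalling by GABA, the main inhibitory transmitter, 1 of 22 tested genes was called, and 6 were lower and 2 higher at an unadjusted p under 0.05. Gabra2, the alpha 2 subunit of the GABA-A receptor (chromosome 5, 70957597 to 71095849), was higher, at 132, 272, 132 and 128 CPM in WT-8M and 361, 364, 379 and 386 CPM in 3xTg-8M. Gabra2 stood at 1.17 on the log2 scale (SE 0.21, adjusted p = 0.0119). WT-8M replicates 1, 3 and 4 lay close to each other and replicate 2 lay between them and 3xTg-8M, and without replicate 2 the log2 fold change was the highest of all alternatives, 1.51. At 10 months it was 1.36 (SE 0.19, adjusted p = 0.00295).

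At the excitatory synapse, 1 of 34 genes of glutamate receptors and their scaffold was called. Grin2c, an NMDA receptor subunit found also in astrocytes, was at 29.2, 28.8, 34.7 and 34.6 CPM in WT-8M and 41.1, 42.8, 45.3 and 40.5 CPM in 3xTg-8M. Grin2c stood at 0.41 on the log2 scale (SE 0.08, adjusted p = 0.0165). This adjusted p was 0.0593 without 3xTg-8M replicate 2 and 0.0619 without WT-8M replicate 2. In the release machinery 1 of 33 was called. Syt2, a fast calcium sensor of vesicle fusion (chromosome 1, 134646677 to 134762593), was lower, at 40.3, 41.6, 30.7 and 40.6 CPM in WT-8M and 23.1, 25.4, 24.7 and 25.1 CPM in 3xTg-8M. Syt2 stood at -0.65 on the log2 scale (SE 0.09, adjusted p = 0.00293). All 7 members of the list with an unadjusted p under 0.05 were lower, where 8.82% of all genes were (median -0.046). Kcna4, a potassium channel of axons, was the 1 called member of 39 voltage-gated channels, at 46.2, 47.1, 37.2 and 38.3 CPM in WT-8M and 29.9, 27.96, 29.9 and 28.7 CPM in 3xTg-8M. Kcna4 stood at -0.54 on the log2 scale (SE 0.09, adjusted p = 0.00549). Chrna5, a nicotinic receptor subunit, was the 1 called of 28 monoamine and acetylcholine receptors, at -0.74 (adjusted p = 0.0459). Chrna5 was not called in 10 of 14 alternatives, among them without any library but WT-8M replicate 1 (up to 0.13). Bdnf, a neurotrophin raised by activity, was the 1 called of 24 immediate-early genes, at 56.7, 65.6, 71.2 and 63.1 CPM in WT-8M and 53.04, 51.4, 43.9 and 49.7 CPM in 3xTg-8M. Bdnf stood at -0.37 on the log2 scale (SE 0.08, adjusted p = 0.0404). It was not called in 9 of 14 alternatives, among them without any library but WT-8M replicate 1 (adjusted p up to 0.113), and had an adjusted p of 0.191 once the trend on transcript length and GC content was removed.

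**Figure D4:**
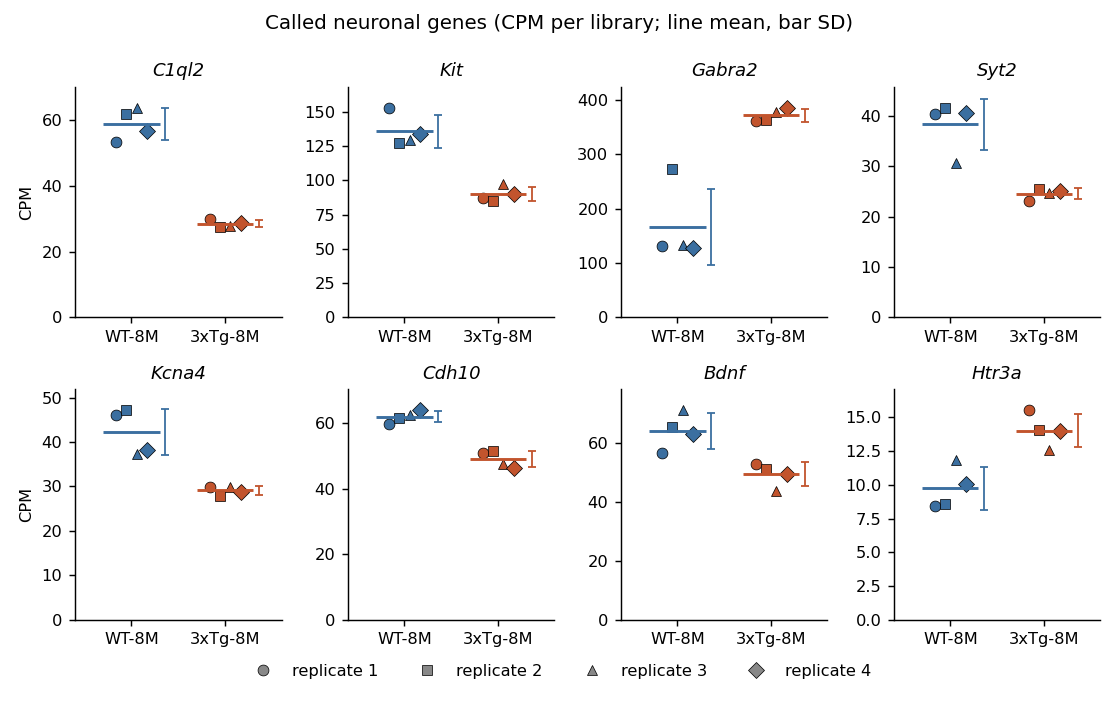
Levels in CPM (vertical axes, from 0) of 8 called neuronal genes in the 4 WT-8M (blue) and 4 3xTg-8M (orange) libraries, with the replicate number given by the symbol, the mean by a line and the SD by a bar. C1ql2 and Kit are lower in every 3xTg-8M library, and WT-8M replicate 2 (square) lies alone at 272 CPM in Gabra2.

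Adhesion molecules that join the synaptic membranes leaned lower by count. Of 38 tested members 3 were called, all lower, against 1.53% of all genes, 12 were lower and 1 higher at an unadjusted p under 0.05, and the median was -0.129. Cdh10, a type II cadherin, was at 59.7, 61.6, 62.5 and 63.8 CPM in WT-8M and 50.9, 51.4, 47.6 and 46.3 CPM in 3xTg-8M. Cdh10 stood at -0.33 on the log2 scale (SE 0.06, adjusted p = 0.011), with no overlap. Cntnap2, a neurexin-family protein that clusters potassium channels, was at 174, 189, 173 and 184 CPM in WT-8M and 151, 151, 153 and 142 CPM in 3xTg-8M. Cntnap2 stood at -0.27 on the log2 scale (SE 0.06, adjusted p = 0.0238). Cntn1, which lies in a run on chromosome 15, was at -0.25 (0.0424). Members such as Lrrtm4 (-0.29, adjusted p = 0.0793) and Nlgn1 (-0.16, 0.275) missed the threshold. With the trend on transcript length and GC content removed, Cdh10 was at -0.16 (adjusted p = 0.539) and Cntnap2 at -0.17 (0.195), neither called. Cntnap2 was also not called in 5 further alternatives, 4 of them without replicates 1 and 2 of 3xTg-8M and 2 and 4 of WT-8M (up to 0.0898). Cntn1 was not called in 8 of 14, among them without any library but 3xTg-8M replicate 4 and WT-8M replicate 3 (up to 0.132). The slope of level on transcript length was 0.798 in 3xTg-8M replicate 4 and 0.916 to 0.987 in the other libraries, and the part of this difference in the adhesion values was not tested beyond that fit.

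Calcium and cAMP signalling and axon guidance had 0 members called by edgeR. In the former 9 of 34 members were lower at an unadjusted p under 0.05, against 8.82% of all genes, and 0 were higher (median -0.097). The smallest p was that of Camk4, a nuclear calcium-dependent kinase, which was at 46.4, 50.4, 66.6 and 61.1 CPM in WT-8M and 41.4, 41.9, 43.7 and 32.2 CPM in 3xTg-8M (-0.49, adjusted p = 0.0622). In the latter 6 of 34 were lower and 1 higher at that p (median -0.097), with Unc5c, a netrin receptor, at -0.30 (0.0526). Among 34 genes of the cytoskeleton and partners of tau 1 was called, with a median of -0.02269. Kif5a, a neuronal kinesin that carries cargo along microtubules, was at 2294, 2477, 2312 and 2622 CPM in WT-8M and 2082, 1777, 2013 and 1895 CPM in 3xTg-8M. Kif5a stood at -0.32 on the log2 scale (SE 0.07, adjusted p = 0.0332). Kif5a lost the call in 5 of 14 alternatives, which included those without replicates 2 and 3 of 3xTg-8M and 2 and 4 of WT-8M (adjusted p up to 0.106). Rgs9, a regulator of dopamine receptor signalling from the striatum list, was at 17.02, 13.4, 12.2 and 11 CPM in WT-8M and 5.12, 7.26, 6.02 and 6.28 CPM in 3xTg-8M. Rgs9 stood at -1.14 on the log2 scale (SE 0.16, adjusted p = 0.00196), and the other striatal markers were not called.

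The circadian clock is a loop in which ARNTL and CLOCK switch on Per, Cry and Nr1d1, which repress them in turn, and output factors such as Dbp. Of 21 tested clock genes 2 were called (9.52%, against 2.58% of all genes), in opposite directions. Arntl was lower, at 41.2, 40.3, 42.9 and 44.3 CPM in WT-8M and 29.3, 30.2, 32.3 and 35.4 CPM in 3xTg-8M. Arntl stood at -0.41 on the log2 scale (SE 0.07, adjusted p = 0.00945). Dbp, an output factor of the loop, was higher, at 34.4, 32.6, 38.3 and 28.9 CPM in WT-8M and 46.5, 50.04, 44.9 and 57.9 CPM in 3xTg-8M. Dbp stood at 0.57 on the log2 scale (SE 0.10, adjusted p = 0.00972). Both were without overlap and were called in all 14 alternatives. Per2 was at 0.47 (adjusted p = 0.137), Tef at 0.21 (0.111), Ciart at 0.32 (0.255) and Nr1d1 at 0.19 (0.259), so that 6 members were higher and 1 lower at an unadjusted p under 0.05. At 10 months Dbp lay on the other side of 0, at -0.34 (SE 0.09, adjusted p = 0.108), and Arntl was at -0.02. The strain effect on Dbp differed between the cohorts by 0.91 (SE 0.15, adjusted p = 0.0162), among 10 genes so called of 16108 tested (0.0621%), and that on Arntl was not called as different. The hour at which each animal was killed is not given in the sources used here, and its part was not tested.

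Lipid metabolism, the subject of the study, was read by 5 lists. In fatty acid synthesis and desaturation 2 of 19 tested members were called (10.5%, against 2.58% of all genes), both lower. Scd3 and Scd1 are desaturases that put a double bond into saturated fatty acids. They had log2 fold changes of -0.99 (adjusted p = 0.00615) and -0.35 (0.0208). Both lie close together on chromosome 19 (44203269 to 44244016 and 44394455 to 44407879). Scd3 was low, with means of 4.49 CPM in WT-8M and 2.23 CPM in 3xTg-8M. At 10 months Scd3 was at -0.45 (adjusted p = 0.338) and Scd1 at -0.10 (0.638), neither called. Fads6 was at -0.34 (0.0622) and the brain form Scd2 at -0.15 (0.191) at 8 months. Of the 14 alternatives 4 lost the call of Scd1, the depth covariate (0.0547) and those without 3xTg-8M replicate 1 (0.0571) and without WT-8M replicates 3 (0.0605) and 4 (0.0638). Dgat2, which makes triglyceride, was the 1 called of 17 triglyceride and lipid droplet genes, at 47.6, 49.3, 55.8 and 51.6 CPM in WT-8M and 60.9, 62.1, 62.1 and 60.7 CPM in 3xTg-8M. Dgat2 stood at 0.27 on the log2 scale (SE 0.06, adjusted p = 0.0485). It was not called in 11 of 14 alternatives, among them without any library but 3xTg-8M replicate 4 and WT-8M replicate 3 (adjusted p up to 0.148). Cholesterol synthesis, lipid transport and fatty acid oxidation had 0 of 19, 0 of 20 and 0 of 19 members called by edgeR, with 4, 4 and 3 at an unadjusted p under 0.05.

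Energy metabolism, protein synthesis and cell death were read by further lists. Of 54 nuclear genes of oxidative phosphorylation 47 had a log2 fold change above 0, with a median of 0.114 at 8 months and -0.081 at 10 months. The list mean of 3xTg-8M replicate 4 was 0.3887 above the WT-8M mean, against -0.02605 to 0.1062 in its other libraries. The 1 call was Cox7c, at -0.57 (0.0419), not called in 9 of 14 alternatives, among them without any library but WT-8M replicate 2 (up to 0.154). Of 77 cytosolic ribosomal proteins 4 were called, Rpl3 (3.07), Rpl34 (3.14), Rplp0 (-1.20) and Rpl29 (1.32, in a run), each with processed copies elsewhere in the genome that can take their reads. Bax, which opens the mitochondrial membrane in cell death, was higher at 0.41 (0.0404) and was not called in 10 of 14 alternatives, among them without any 1 of the 8 libraries (up to 0.118).

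Signals of the Wnt family pattern the hippocampus and keep its stem cell niche. The list of Wnt and TGF-beta genes held 3 called members of 33 (9.09%, against 2.58% of all genes). Lgr6, a receptor that strengthens Wnt signalling (chromosome 1, 134983301 to 135105276), was at 4.59, 3.71, 3.51 and 3.503 CPM in WT-8M and 21.5, 20.5, 21 and 13.6 CPM in 3xTg-8M. Lgr6 stood at 2.30 on the log2 scale (SE 0.16, adjusted p = 7.39e-06), and at 10 months at 2.21. Sfrp1, a secreted Wnt inhibitor, was higher, at 6.202, 6.71, 5.52 and 5.24 CPM in WT-8M and 8.85, 11.2, 10.2 and 12.8 CPM in 3xTg-8M. Sfrp1 stood at 0.86 on the log2 scale (SE 0.14, adjusted p = 0.00592). Wnt9a, a ligand, was lower, at 5.03, 5.64, 5.37 and 4.44 CPM in WT-8M and 2.56, 3.21, 2.03 and 2.87 CPM in 3xTg-8M. Wnt9a stood at -0.93 on the log2 scale (SE 0.16, adjusted p = 0.00952). Id1 and Id3, targets of bone morphogenetic protein, were at 0.58 (0.0622) and 0.34 (0.247). Adult neurogenesis markers had 0 of 12 called by edgeR, with 1 higher and 3 lower at an unadjusted p under 0.05. In the matrix list the protease Adamts1 was the 1 called of 26, at 23.7, 28.9, 25.8 and 26.8 CPM in WT-8M and 16.4, 19.02, 14.1 and 16.7 CPM in 3xTg-8M. Adamts1 stood at -0.67 on the log2 scale (SE 0.10, adjusted p = 0.00314).

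Markers of cells that border the hippocampus varied widely between libraries of 3xTg-8M. The choroid plexus list, with 0 of 8 tested markers called by edgeR and 0 at an unadjusted p under 0.05, had summed levels of 215.4 to 291.3 CPM in WT-8M and of 235.7, 286.5, 207.7 and 714.7 CPM in 3xTg-8M. Its main marker Ttr was at 16.5, 5.21, 16.9 and 23.6 CPM in WT-8M and 1.49, 36.9, 2.33 and 323 CPM in 3xTg-8M. The meningeal list ran from 405.3 to 602 CPM in WT-8M and from 232.5 to 1246 CPM in 3xTg-8M, with 0 of 14 called and 1 at that p. With the choroid plexus score as a covariate 393 genes were called, 362 of them among the 399, and the unfolded protein response had 6 calls. Erythroid genes had 0 of 6 called and 3 higher at an unadjusted p under 0.05, with Hba-a1 at 0.82, 1.5, 2.54 and 1.25 CPM in WT-8M and 3.996, 3.13, 1.66 and 6.62 CPM in 3xTg-8M (1.45, adjusted p = 0.0943).

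The remaining lists had 0 members called by edgeR and are given by the member of smallest p, with the log2 fold change and adjusted p. In principal neurons these were Ajap1 of mossy cells (0.27, adjusted p = 0.052, 3 of 8 markers at an unadjusted p under 0.05), Cpne4 of CA3 (-0.25, adjusted p = 0.163, 1 of 10), Map3k15 of CA2 (0.64, adjusted p = 0.271, 1 of 8) and Htr1a, a serotonin receptor of CA1 (0.24, adjusted p = 0.127, 4 of 10). Neighbouring regions gave Rgs16 of the thalamus (0.36, adjusted p = 0.135, 2 of 11) and Tle4 of the neocortical layers (-0.14, adjusted p = 0.288, 0 of 10), and Cajal-Retzius cells Diablo (-0.43, adjusted p = 0.295, 0 of 6). In glia they were Fgfr3 of astrocytes (0.23, adjusted p = 0.0649), Opalin, a myelin protein (-0.54, adjusted p = 0.0907), and Pdgfra of oligodendrocyte precursors and of meninges (-0.15, adjusted p = 0.226). In vessels, Kdr, the VEGF receptor of endothelium, was at -0.46, adjusted p = 0.0555 (3 of 15) and Tagln of smooth muscle at 0.99, adjusted p = 0.298 (0 of 12). Tmem212 of ependyma was at 0.83, adjusted p = 0.214 (1 of 12), and Cd74 of border macrophages, the invariant chain of class II, at 1.11, adjusted p = 0.322 (0 of 7).

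Among pathways of this kind, Cyp51 of cholesterol synthesis was at 0.23, adjusted p = 0.107, Fabp7 of lipid transport at -0.43, adjusted p = 0.0757 and Pdk4 of fatty acid oxidation at 0.33, adjusted p = 0.236. Scg2, a granin of the neuropeptide list, was at -0.23, adjusted p = 0.0545 (4 of 19, all lower, median -0.1704). Gpx1, a peroxidase of the antioxidant list, was at 0.39, adjusted p = 0.0812 (5 of 21), Npc2 of the lysosome at 0.17, adjusted p = 0.264 (1 of 27) and Hnrnpd of splicing at -0.23, adjusted p = 0.111 (4 of 33). The glucocorticoid-responsive list had 6 members higher and 2 lower of 19 at that p, with Mertk, a receptor for engulfment, at 0.29, adjusted p = 0.0691. The lactate carrier Slc16a1 of glycolysis was at -0.40, adjusted p = 0.0576 (6 of 23), and mt-Nd5 of the mitochondrial genome at -0.22, adjusted p = 0.229 (1 of 8).

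Among all called protein-coding genes outside runs, the largest differences were in genes of many functions. The clustered protocadherins Pcdhga4, Pcdhgb6 and Pcdhga11 among them share a locus on chromosome 18 (37685210 to 37841873). Beside Rpl34, Rpl3, Lgr6, Thy1, Chil1, Gabra2 and Sdf2l1, the largest increases were in Capza1, an actin capping subunit, at 3.44, 2.71, 3.13 and 3.295 CPM in WT-8M and 8.42, 9.55, 9.33 and 7.02 CPM in 3xTg-8M (1.43, adjusted p = 0.000118). Others were Pcdhga4, a clustered protocadherin (1.12), Ttll12 (0.92) and Dapp1 (0.92). The largest decreases beside Serpina3n and Rplp0 were in Tuba1c, a tubulin with close paralogs, at 26.9, 26.8, 24.8 and 24 CPM in WT-8M and 0.458, 0.382, 0.15 and 0.602 CPM in 3xTg-8M (-5.92, adjusted p = 7.83e-09), and the chemokine Ccl27a, at 19.9, 19.9, 17.8 and 18.3 CPM in WT-8M and 1.46, 0.993, 1.81 and 2.41 CPM in 3xTg-8M (-3.52, adjusted p = 5.34e-07). Lower as well were the protocadherins Pcdhga11 (-2.60) and Pcdhgb6 (-1.65), Mcm6, of DNA replication licensing (-1.87), Abhd1 (-1.80), the fibrillar collagen Col11a1 (-1.43), the oxidoreductase Wwox (-1.29) and Ccdc80 (-1.20). The groups did not overlap in any of these genes, as the rule that chose them required. For Rpl3 and Tuba1c the difference was not shared by the vehicle cohort. Rpl3 had a mean of 4.68 CPM (WT-8M) against 39.7 CPM (3xTg-8M). At 10 months its means were 39.4 CPM (3xTg-D) and 42.9 CPM (WT-D), so that WT-8M alone was low. Tuba1c was not among the genes tested at 10 months. Its strain effect differed between the cohorts by -6.753 (adjusted p = 4.51e-07 in the test of that difference). The most highly expressed called genes outside runs were Kif5a, App, Thy1, Hspa5, Phyhip (log2 fold change 0.33, adjusted p = 0.0246) and the kinase Cdk14 (-0.30, adjusted p = 0.0138). Phyhip was not called in 6 of 14 alternatives, 5 of them without replicates 1, 2 and 3 of 3xTg-8M and 2 and 4 of WT-8M (up to 0.0962), and Cdk14 in 2, without replicate 2 of either group (up to 0.0572).

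Called genes in runs had the larger log2 fold changes by median, which was not tested. The median size of the log2 fold change was 0.8526 for the 86 called genes in runs and 0.6536 for the 313 outside. Runs brought together genes of unrelated function, among them 10 of 33 tested genes on chromosome 13 (66904914 to 67844035, GRCm38), many of them zinc finger genes, led by Zfp874a (-0.77), with 9 of the 10 lower. On chromosome 9 (104002544 to 106447678) 11 of 26 were called, which include Rpl29 and 3 collagen VI chains. Other runs were led by Ddo (1.05), A830036E02Rik (-7.64), Plekhh3 (0.57), 4833420G17Rik (-1.72), Pdzrn4 (-0.55), Tagap1 (1.44), Fam204a (-0.51), Gm14295 (-0.82), Alpk1 (-1.98), Arhgef19 (0.77), Miip (0.70), Stbd1 (2.79), 4933404O12Rik (0.57) and Spink8 (1.52). With 2 neighbouring called genes enough for a run in place of 3, the rule left 189 called genes outside runs. Some called genes outside runs also lie close together without being joined by the rule. Among them are Chil1, Syt2 and Lgr6 on chromosome 1 (134182176 to 135105276). Others are Pcdhga4, Pcdhgb6 and Pcdhga11 on chromosome 18 (37685210 to 37841873), and Scd3 and Scd1 on chromosome 19 (44203269 to 44407879). Manf lies close to the run on chromosome 9. The part of shared segments in these calls was not tested.

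Most called genes of both kinds had the same direction in the second cohort, whose animals are separate. Of the 290 called genes outside runs that were tested at 10 months under vehicle, 272 had the same sign (93.79%), 68 were also called there, all with the same sign. Their median log2 fold change at 10 months, in the direction of 8 months, was 0.307. At 8 months the median size was 0.6536 for all 313 called genes outside runs. Of the 81 in runs, 80 had the same sign and 20 were called. Over all 15256 genes tested in both cohorts 54.7% had the same sign. The age, the surgery and the infusion differ between the cohorts and cannot be told apart.

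**Figure D5:**
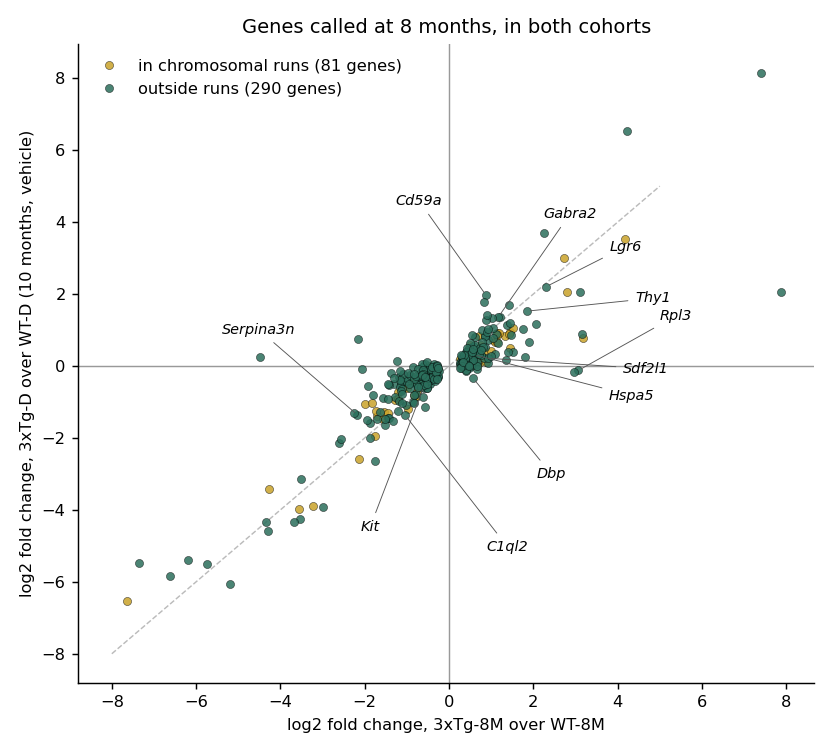
Log2 fold change of 3xTg over WT at 8 months (horizontal axis) and at 10 months under vehicle (vertical axis) for the called genes tested in both cohorts, 290 outside runs (green) and 81 in runs (yellow), with the dashed line marking equal values. Most points have the same sign on both axes, C1ql2 and Kit lie near the line, and Dbp and Rpl3 lie below 0 on the vertical axis.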

How the data were processed

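Hippocampal RNA of unoperated female 3xTg and WT mice, 4 of each at 8 months, was sequenced by the authors as single-end mRNA libraries. Per the labels reads were trimmed with Trimmomatic 0.35 and aligned to GRCm38 with STAR 2.5.1b, and the authors deposited raw counts per gene, with strand handling not given in the sources used here. Lines of reads assigned to no gene (24.99% to 30.87% of each library) were removed. Counts were filtered (filterByExpr), scaled by TMM and tested with edgeR 4.0.16 (quasi-likelihood, R 4.3.3, Benjamini-Hochberg adjusted p under 0.05), and the script was tested on simulated data. Genes were named if called in a list, as the smallest p of a list with 0 calls, as the largest change of a run (mean of at least 5 CPM), as 1 of the 6 highest levels, or among the 12 largest changes in each direction of called, non-overlapping protein-coding genes outside runs (mean of at least 5 CPM, no Gm, BC, AA, Rik, -ps or LOC names). Others served to show list members that missed the threshold and were picked with values in view. Members, lists and tests were chosen with earlier results of these data known. Alternatives changed scaling (DESeq2 1.42.0 size factors), filter, tool, threshold, length and GC trend, covariates, run rule and libraries. The depth covariate and the leave-outs at 10 months were chosen after seeing the data. Lists are described by counts and medians only. Some genes and a strain label that the rule would give are not reported here.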

Additional observations from a re-analysis of the deposited data

Results flagged for a closer look

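The strain effect differed between the 8-month and the 10-month vehicle cohort, by the test of the difference itself, in 10 genes. Dbp, a clock output factor, differed by 0.9134 on the log2 scale (8 months minus 10 months), being higher in 3xTg at 8 months and not called at 10 months. Hddc3, a hydrolase, differed by 1.18 and was called, as lower, at 10 months alone. Among genes with near-identical copies or without a known role, Rpl3 differed by 3.19, its processed copy Rpl3-ps1 by -4.734, Tuba1c by -6.753, Olfr287 by 3.126 and A730060N03Rik by -2.916. The others were Gm14150 (-4.599), Gm13886 (-6.379) and 5830444B04Rik (3.18). Rpl3, Tuba1c, Olfr287 and A730060N03Rik all lie on chromosome 15, with Rpl3 starting at 80077791 and Tuba1c at 99029891. Gm14150 and Gm13886 lie on chromosome 2, and Dbp and Hddc3 on chromosome 7. The part of shared segments in these differences was not tested.

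In 12 of 220 groups of 4 libraries 1 library stood far from the other 3, and chance alone flags about 1 group in 20. In WT-8M these were Gabra2 in replicate 2 (272.2 CPM), Syt2 (30.67 CPM) and Herpud1 (45.07 CPM) in replicate 3, Stbd1 in replicate 4 (1.561 CPM), and A830036E02Rik (29.29 CPM), 4833420G17Rik (54.97 CPM) and Map3k15 (1.503 CPM) in replicate 1. In 3xTg-8M all were replicate 4, with Ttr at 322.5 CPM and the lactate carrier Slc16a1 at 72.44 CPM as high values, and Lgr6 at 13.63 CPM, Alpk1 at 3.542 CPM and Scd1 at 118.4 CPM as low ones.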

How the results depend on the processing

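Depth was 29215044 to 36686413 gene counts in 3 libraries and 12802267 to 15348667 in the other 5, which limits the precision of low genes in the latter. No paired analysis was possible because the labels give the groups no shared replicate numbers. Called genes numbered 399 (162 higher, 237 lower) and 313 outside runs (129 higher, 184 lower). Without a filter on low counts there were 854 (350 higher, 504 lower), with 652 outside runs (262 and 390). The DESeq2 likelihood ratio test called 684 (275 and 409), with 487 outside runs, 298 of them lower. At an unadjusted p under 0.01 there were 1066 (484 and 582), with 666 outside runs (304 and 362). With depth class as a covariate 105 were higher. With 2 called genes enough for a run, 189 (74 and 115) lay outside. Leaving out 1 library gave 227 (without 3xTg-8M replicate 1) to 449 (without 3xTg-8M replicate 4) called genes, 85 (without 3xTg-8M replicate 2) to 191 higher and 140 to 258 lower, and outside runs 191 to 353, with 68 to 152 higher and 116 to 201 lower. The unfolded protein response then had 1 to 6 called members. At 10 months under vehicle the 216 calls became 769 at an unadjusted p under 0.01 and 125 to 200 with 1 library left out, and the 10 genes whose strain effect differed between cohorts became 352. With the length and GC trend removed, 46.2% of calls were higher, against 40.6%, and without 3xTg-8M replicate 2 35.3%. The log2 fold change of Ttr, 2.498, reversed to -0.3785 with the choroid plexus score as a covariate and to -0.3203 without 3xTg-8M replicate 4, and reached 2.924 without 3xTg-8M replicate 1. Of the named genes' values over all alternatives, 1314 kept their direction and side of the threshold, 175 lost the threshold and 63 gained it. The left-out libraries change the number of samples and the filter the number of genes tested, and an unadjusted threshold admits more genes by construction. For the tool, the covariates and the length and GC trend the cause was not tested.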
